A study of Homo sapiens with 12 samples.

Results

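The genes described are 10 members of the ADAMTS family of secreted metalloproteases, ADAMTS1, ADAMTS2, ADAMTS4, ADAMTS5, ADAMTS6, ADAMTS7, ADAMTS9, ADAMTS10, ADAMTS12 and ADAMTS15, in SJSA-1 osteosarcoma cells with and without RUNX2 silencing. They were chosen by symbol, with earlier results of these data known. Each has 1 row among the 59248 rows of the deposited gene tables, which hold 19 ADAMTS genes in all. SJSA-1 is an established human osteosarcoma line. The 6 shNC libraries came from SJSA-1 cells stably expressing a scramble shRNA, and the 6 sh1 libraries came from SJSA-1 cells stably expressing an shRNA against RUNX2, the runt-related transcription factor of osteoblast differentiation. Cells of both groups carried a lentiviral shRNA vector with EGFP and puromycin resistance and had been selected with puromycin. The design compares 1 RUNX2 shRNA with 1 control in 1 cell line, and the sources do not say that the libraries of a group came from separate cultures, so any p-value here reflects the spread among these libraries only, and that spread may be technical.

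ADAMTS proteins are made as inactive precursors, cut by furin-like convertases, and act outside the cell. They hold a zinc metalloprotease domain followed by thrombospondin type I repeats that bind the extracellular matrix. ADAMTS1, ADAMTS4, ADAMTS5, ADAMTS9 and ADAMTS15 cleave the large proteoglycans aggrecan and versican, ADAMTS2 removes the N-propeptide of fibrillar procollagens, the related pair ADAMTS7 and ADAMTS12 cleaves cartilage oligomeric matrix protein (COMP), and the related pair ADAMTS6 and ADAMTS10 acts on fibrillin microfibrils. TIMP3 is the main tissue inhibitor of several of them.

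Promoter sequences of 5 of the 10 members are in the RefSeq table used here (build GRCh38.p14), and the 4 whose expression passed the test are shown, because RUNX2 is a DNA-binding factor and these genes moved in both directions. Each line gives, 5′ to 3′ and on the strand of the gene, the bases just before the RefSeq transcription start, without bases annotated as an exon, which for ADAMTS12 leaves out the bases nearest to the start. All 4 genes lie on the minus strand, ADAMTS2 at chr5:179345462-179345711, ADAMTS7 at chr15:78811465-78811714, ADAMTS6 at chr5:65481921-65482170 and ADAMTS12 at chr5:33892020-33892240. Capitals mark letters that match a RUNX motif (TGTGGT or TGCGGT) or a loose form of the AP-1 motif, on either strand. The loose form is TGANTCA, where N is any base. The first 2 lines are genes that rose in sh1 and the last 2 are genes that fell.
ADAMTS2: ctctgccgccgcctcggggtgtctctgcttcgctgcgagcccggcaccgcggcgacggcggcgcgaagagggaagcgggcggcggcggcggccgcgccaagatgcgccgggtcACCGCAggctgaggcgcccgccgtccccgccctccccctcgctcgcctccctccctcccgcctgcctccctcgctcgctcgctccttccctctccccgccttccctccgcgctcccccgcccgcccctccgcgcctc
ADAMTS7: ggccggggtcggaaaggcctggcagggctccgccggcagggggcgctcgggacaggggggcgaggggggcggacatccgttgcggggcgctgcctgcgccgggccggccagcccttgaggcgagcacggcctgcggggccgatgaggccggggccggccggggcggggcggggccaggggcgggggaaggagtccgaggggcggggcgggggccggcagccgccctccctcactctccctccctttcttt
ADAMTS6: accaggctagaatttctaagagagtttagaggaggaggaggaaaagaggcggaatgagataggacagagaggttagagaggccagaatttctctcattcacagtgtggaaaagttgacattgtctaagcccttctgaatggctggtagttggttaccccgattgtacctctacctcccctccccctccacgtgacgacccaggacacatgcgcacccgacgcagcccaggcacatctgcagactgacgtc
ADAMTS12: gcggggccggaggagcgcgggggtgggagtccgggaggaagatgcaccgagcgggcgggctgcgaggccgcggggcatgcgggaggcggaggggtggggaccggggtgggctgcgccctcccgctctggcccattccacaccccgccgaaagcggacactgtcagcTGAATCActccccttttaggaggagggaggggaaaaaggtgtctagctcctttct

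Over the 300 bases from 250 before to 50 after the start, TGTGGT was in none of these 4 windows and in 13.1% of the 35116 promoters of the table. TGCGGT matched ADAMTS2 on the strand opposite to the gene at 137 bases before the start, shown in capitals. TGCGGT matched again on the strand of the gene at 20 bases after the start, outside the bases shown. It was in 7.29% of all promoters. TGANTCA, which reads nearly the same on both strands, matched ADAMTS12 at 84 bases before the start and was in 7.71% of all promoters. The ADAMTS12 match reads TGAATCA, with A where the AP-1 consensus has C or G, so it is not a match to that consensus. The ADAMTS2 and ADAMTS7 windows held 80.3% and 74.3% G and C, the ADAMTS12 window 67% and the ADAMTS6 window 52%, beside a median of 58.7% over all promoters. The matches describe letters in these windows and not binding.

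Total gene counts ranged from 15328312 to 19992974 in shNC and from 11239638 to 16346022 in sh1. The lowest, sh1 replicate 3, also had 1.23% of its counts in entries without an Ensembl identifier, against 0.468% to 0.576% in the other 11 libraries, and member values without it are given below. RUNX2 was at 39.8 ± 4.31 CPM (SD, n = 6) in shNC and at 24.6 ± 1.95 CPM (SD, n = 6) in sh1, where CPM is the count of a gene scaled to a common library size with TMM factors. The lowest shNC library was at 35.5 and the highest sh1 library at 27.4, so the groups did not overlap (log2 fold change -0.69, adjusted p = 4.6e-06 from edgeR, and exact two-sided permutation p = 0.0022, the smallest that 6 libraries against 6 allow). Of 8 osteoblast lineage markers, 4 had enough counts to be tested, IBSP had no count in any library, and SP7, ALPL and BGLAP had a highest library count of 1, 1 and 5. Of the 4 tested, RUNX2 fell, SPARC (0.66, adjusted p = 5.6e-07 from edgeR) and COL1A1 (1.49, adjusted p = 2.3e-05 from edgeR) rose, and SPP1 did not pass (-0.20, adjusted p = 0.30 from edgeR). The summed osteoblast level, most of it SPARC, was 1390 to 1614 CPM in shNC and 2007 to 2638 CPM in sh1, with no overlap. MDM2, which is known to be amplified in SJSA-1, was at 912 ± 83.4 CPM in shNC and 1125 ± 112 CPM in sh1 (SD, n = 6 each). It rose (0.30, adjusted p = 0.0042 from edgeR) with overlapping groups. CDK4, the other marker listed for this amplified region, was at 137 ± 10.6 CPM in shNC and 133 ± 15.1 CPM in sh1 (SD, n = 6 each). CDK4 did not pass (-0.041, adjusted p = 0.71 from edgeR). None of 5 leukocyte markers was tested, with a summed level of 0.180 to 0.777 CPM in shNC and 0.127 to 0.494 CPM in sh1. Of 5 endothelial markers, 3 were tested and KDR fell (-1.11, adjusted p = 0.007 from edgeR). Their summed level was 4.20 to 7.51 CPM in shNC and 3.83 to 6.86 CPM in sh1. Of 5 epithelial markers, KRT8 and KRT18 carried most of the level, KRT8 rose (0.48, adjusted p = 0.00021 from edgeR), CLDN4 fell (-0.58, adjusted p = 0.029 from edgeR) and CDH1 had no count in any library. The summed epithelial level was 376 to 469 CPM in shNC and 424 to 583 CPM in sh1. Among 5 chondrocyte markers, SOX9 was tested and fell (-0.81, adjusted p = 3.5e-09 from edgeR). The summed chondrocyte level, nearly all of it SOX9, was 158 to 188 CPM in shNC and 95.2 to 107 CPM in sh1. The part of these markers in the results below was not tested. In bulk RNA of a cell line, fewer cells expressing a gene and less of its RNA per cell cannot be told apart.

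Of the 10 members, 6 had enough counts to be tested, and 4 were higher and 2 lower in sh1. ADAMTS15, ADAMTS2, ADAMTS7 and ADAMTS9 rose, and ADAMTS6 and ADAMTS12 fell, at an adjusted p under 0.05 from edgeR's quasi-likelihood test over 16489 genes. Over all genes tested, 12.8% were called higher and 13.3% lower. In each of the 6 genes the 6 sh1 libraries lay wholly above or wholly below the 6 shNC libraries, as in 11.9% of all genes tested. ADAMTS15, whose log2 fold change passed 1, was the member of the 1.20% of genes called higher with that size. The tested members are those with enough counts in at least 1 group, and ADAMTS15 reached this through its sh1 libraries. The members were also chosen with earlier results of these data known, so the counts over tested members are a description.

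**Figure D1:**
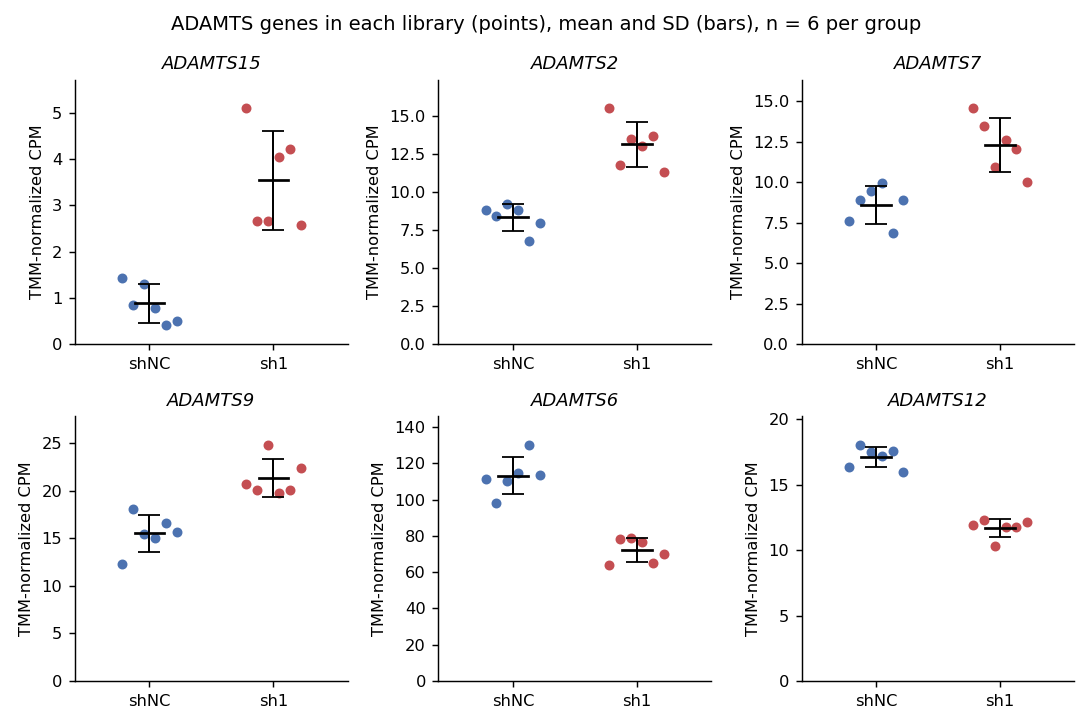
The 6 tested ADAMTS genes in TMM-normalized CPM (vertical axes, each from 0), with 1 point per library and group means with SD drawn as bars. In the 4 genes ADAMTS15, ADAMTS2, ADAMTS7 and ADAMTS9 all sh1 points lie above all shNC points, and in ADAMTS6 and ADAMTS12 all lie below.

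Among the proteoglycan-cleaving members, ADAMTS15 showed the largest fold change of the tested members. ADAMTS15 (ENSG00000166106, chromosome 11 from 130448645 to 130476645, plus strand, 8 exons in the canonical transcript, GRCh38) ranged from 0.420 to 1.44 CPM with a median of 0.809 in shNC and from 2.57 to 5.10 CPM with a median of 3.35 in sh1. Every sh1 library was above every shNC library, with counts of 7 to 26 in shNC and 30 to 78 in sh1. The rise was 3.95-fold (log2 fold change 1.98, standard error 0.265, adjusted p = 3.1e-05 from edgeR). The fold rested on a control level near the low end of what was tested. With 1 FPKM added to each value before the log2, the log2 fold change was 0.49 (adjusted p = 0.00024 from limma).

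ADAMTS9, a versican- and aggrecan-cleaving protease with a long array of thrombospondin repeats (ENSG00000163638, chromosome 3 from 64515654 to 64688000, minus strand, 40 exons), ranged from 12.3 to 18.1 CPM with a median of 15.6 in shNC and from 19.7 to 24.8 CPM with a median of 20.4 in sh1. The groups did not overlap, though the highest shNC and lowest sh1 libraries were close. The rise was 1.37-fold (log2 fold change 0.45, standard error 0.0886, adjusted p = 0.0011 from edgeR). ADAMTS9-AS1, on the opposite strand, shares 174 exonic bases with ADAMTS9 and had 38 counts in all in shNC and 27 in sh1, against 1624 and 1892 for ADAMTS9. Strand is not marked by the kit used, and the source of reads in the shared bases cannot be told apart.

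The 3 other proteoglycan-cleaving members were at the edge of detection. ADAMTS1 (chromosome 21 from 26835755 to 26845409, minus strand) had 2 to 11 counts per library in shNC and 0 to 9 in sh1. ADAMTS4, named aggrecanase-1 (chromosome 1 from 161184302 to 161199054, minus strand), had 1 to 9 counts in shNC and 0 to 6 in sh1. ADAMTS5, the main aggrecanase of cartilage (chromosome 21 from 26917922 to 26967088, minus strand), had 0 or 1 count in every library of both groups. None of the 3 had enough counts for the test. With every gene kept, the log2 fold change was -0.91 for ADAMTS1 (adjusted p = 0.32 from edgeR, standard error 0.509) and -0.76 for ADAMTS4 (adjusted p = 0.46, standard error 0.542), so a difference was not detectable at this depth. ADAMTS5 was within the 3 counts that a count of 0 allows in every library, and no fold is given.

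ADAMTS2, the procollagen N-propeptidase (ENSG00000087116, chromosome 5 from 179110853 to 179345461, minus strand, 22 exons), rose 1.57-fold. It ranged from 6.78 to 9.21 CPM with a median of 8.64 in shNC and from 11.4 to 15.6 CPM with a median of 13.3 in sh1. No sh1 library reached down to the highest shNC library (log2 fold change 0.65, standard error 0.0962, adjusted p = 8.1e-05 from edgeR). ADAMTS3, another procollagen N-propeptidase that is not a member, was at 7.70 ± 0.913 CPM in shNC and 6.80 ± 0.545 CPM in sh1 (SD, n = 6 each) and did not pass (log2 fold change -0.18, adjusted p = 0.21 from edgeR). ADAMTS14, the remaining gene of this subfamily, had at most 5 counts in a library. The log2 ratio of ADAMTS2 to ADAMTS3 counts within a library, which no scaling of the libraries changes, was 0.12 ± 0.297 in shNC and 0.95 ± 0.196 in sh1 (SD, n = 6 each).

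ADAMTS7 and ADAMTS12, paralogs with a similar domain order, moved in opposite directions. ADAMTS7 (ENSG00000136378, chromosome 15 from 78759206 to 78811464, minus strand, 24 exons) ranged from 6.84 to 9.97 CPM with a median of 8.91 in shNC and from 10.003 to 14.6 CPM with a median of 12.3 in sh1. The lowest sh1 library was just above the highest shNC library, and the rise was 1.43-fold (log2 fold change 0.51, standard error 0.109, adjusted p = 0.002 from edgeR). ADAMTS12 (ENSG00000151388, chromosome 5 from 33523535 to 33892019, minus strand, 24 exons) ranged from 16.0 to 18.1 CPM with a median of 17.3 in shNC and from 10.3 to 12.3 CPM with a median of 11.8 in sh1. Its groups were far apart against their spread, and the sh1 level was 0.685 times the shNC level (log2 fold change -0.54, standard error 0.0688, adjusted p = 1.7e-05 from edgeR).

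The log2 ratio of ADAMTS7 to ADAMTS12 counts within a library was -1.0 ± 0.213 in shNC, from -1.36 to -0.79, and 0.060 ± 0.190 in sh1, from -0.28 to 0.29 (SD, n = 6 each). ADAMTS12 thus had more counts than ADAMTS7 in every shNC library, while the sign of the ratio varied among the sh1 libraries. The group means differed by 1.06. The third ratio, ADAMTS9 to its closest relative ADAMTS20, was 4.01 ± 0.616 in shNC and 4.77 ± 0.692 in sh1 (SD, n = 6 each), with overlapping groups. The 3 ratios were chosen after the values of these genes were known. They are given as descriptions, and the p-values of their permutation tests are left out for that reason. Pseudogenes of ADAMTS7 can share its reads, and ADAMTS7P1, ADAMTS7P3 and ADAMTS7P4 had 3, 12 and 63 counts in all in shNC and 1, 6 and 35 in sh1, against 900 and 1108 for ADAMTS7. How reads matching both were counted was not tested.

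**Figure D2:**
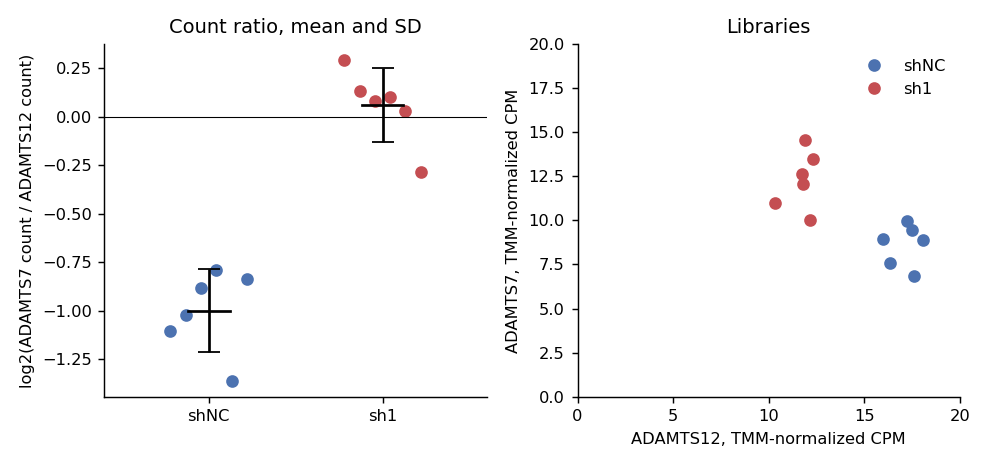
Left, log2 ratio of ADAMTS7 to ADAMTS12 counts in each library, with group means and SD. Right, the TMM-normalized CPM of both genes in each library, with blue points for shNC and red points for sh1. The ratio runs from -1.36 to -0.79 in shNC and from -0.28 to 0.29 in sh1.

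ADAMTS6, a protease of fibrillin-rich matrix (ENSG00000049192, chromosome 5 from 65148738 to 65481920, minus strand, 25 exons), fell. It ranged from 98.3 to 130.2 CPM with a median of 113 in shNC and from 64.1 to 78.6 CPM with a median of 73.4 in sh1. The highest sh1 library was well below the lowest shNC library. The sh1 level was 0.638 times the shNC level (log2 fold change -0.65, standard error 0.0688, adjusted p = 2.8e-06 from edgeR). Its paralog ADAMTS10 (chromosome 19 from 8580240 to 8610735, minus strand) had 0 to 3 counts per library in shNC and 0 to 4 in sh1, too few for the test. FBN1, a main fibrillin of microfibrils, was expressed in both groups and is given below.

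Without sh1 replicate 3 the log2 fold changes were 2.05 for ADAMTS15, 0.66 for ADAMTS2, 0.55 for ADAMTS7, 0.42 for ADAMTS9, -0.66 for ADAMTS6 and -0.50 for ADAMTS12, and all 6 genes passed the test. ADAMTS12 had its lowest value, 10.3 CPM, in that library, against 11.8 to 12.3 CPM in the other sh1 libraries. On the log2(FPKM + 1) scale, where the added 1 is large beside the level of most members, limma gave 0.36 for ADAMTS2, 0.30 for ADAMTS7, 0.30 for ADAMTS9 and -0.31 for ADAMTS12, all past the test and all under the sizes above by over 1.5 times. ADAMTS6 had -0.58 on that scale.

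Levels of different genes were compared in FPKM, which divides the count by gene length and by the library's total count. In shNC the order by mean was ADAMTS6 (13.1 ± 1.11 FPKM), ADAMTS12 (1.74 ± 0.0945), ADAMTS9 (1.44 ± 0.195), ADAMTS7 (1.11 ± 0.167), ADAMTS2 (0.950 ± 0.105) and ADAMTS15 (0.154 ± 0.0706), with SD and n = 6 throughout. The ranges of ADAMTS12 and ADAMTS9, of ADAMTS9 and ADAMTS7 and of ADAMTS7 and ADAMTS2 overlapped, while ADAMTS6 stood above and ADAMTS15 below all of these. In sh1 the order was ADAMTS6 (8.45 ± 0.767 FPKM), ADAMTS9 (2.00 ± 0.193), ADAMTS7 (1.59 ± 0.211), ADAMTS2 (1.51 ± 0.173), ADAMTS12 (1.20 ± 0.0702) and ADAMTS15 (0.63 ± 0.187). Here the ranges of ADAMTS9 and ADAMTS7 and of ADAMTS7 and ADAMTS2 overlapped, and ADAMTS12 had passed from the second to the fifth place with a range below that of ADAMTS2. ADAMTS1, ADAMTS4, ADAMTS10 and ADAMTS5 followed in this order in both groups, with means from 0.050 down to 0.00224 FPKM in shNC and from 0.0263 down to 0.00238 FPKM in sh1. The ranges of ADAMTS15 and ADAMTS1 overlapped in shNC and did not in sh1. Neighbours among the last 4 overlapped in both groups.

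The FPKM of the 10 members summed to between 17.5 and 19.9 in shNC, with a median of 18.7, and to between 14.7 and 16.1 in sh1, with a median of 15.6. ADAMTS6 made up 70.4% ± 2.93 of this sum in shNC and 54.7% ± 3.42 in sh1 (SD, n = 6 each). Without ADAMTS6 the sum of the others was 5.48 ± 0.419 FPKM in shNC and 6.99 ± 0.439 FPKM in sh1 (SD, n = 6 each). The sh1 libraries thus all lay below the shNC libraries in the total and above them in the remainder. ADAMTS15 made up 0.838% ± 0.408 of the sum in shNC and 4.06% ± 1.27 in sh1 (SD, n = 6 each). The sums are descriptions with no test.

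**Figure D3:**
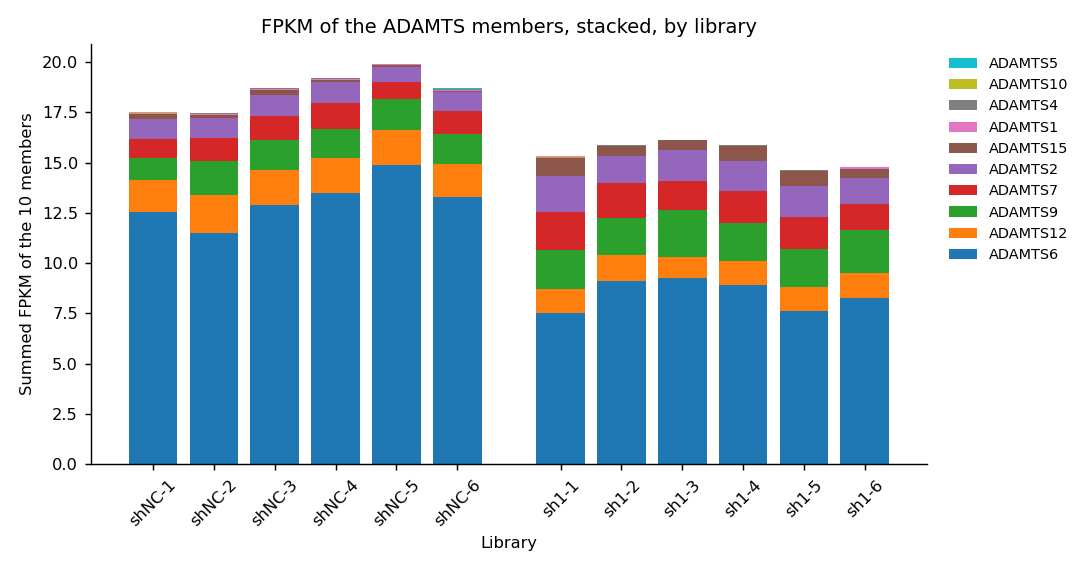
FPKM of the 10 members, stacked, in each shNC library (left) and each sh1 library (right). The bars reach 17.5 to 19.9 FPKM in shNC and 14.7 to 16.1 FPKM in sh1, and the lowest segment, ADAMTS6, takes the largest share of each.

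Of the 9 other genes of the ADAMTS family, 7 were tested, 1 was called higher and none lower, with a median log2 fold change of -0.048 beside -0.0035 over all genes tested. ADAMTS13, the protease of von Willebrand factor, was at 0.618 ± 0.203 CPM in shNC and 0.999 ± 0.227 CPM in sh1 (SD, n = 6 each) with overlapping groups. Its call (log2 fold change 0.68, adjusted p = 0.042 from edgeR) was lost under 14 of 19 alternatives, DESeq2 among them (adjusted p = 0.10). ADAMTS16, the most abundant of these genes, was at 17.8 ± 3.94 CPM in shNC and 20.01 ± 2.27 CPM in sh1 (SD, n = 6 each, log2 fold change 0.17, adjusted p = 0.32 from edgeR). ADAMTS17, ADAMTS18, ADAMTS19 and ADAMTS20 did not pass either, with log2 fold changes from -0.41 for ADAMTS18 to 0.47 for ADAMTS17. ADAMTS8 had no count in any library, which allows up to 0.150 to 0.267 CPM by library (3 counts, counting error only). ADAMTS8 is the nearest protein-coding neighbour of ADAMTS15, 20.04 kb away on the opposite strand.

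**Figure D4:**
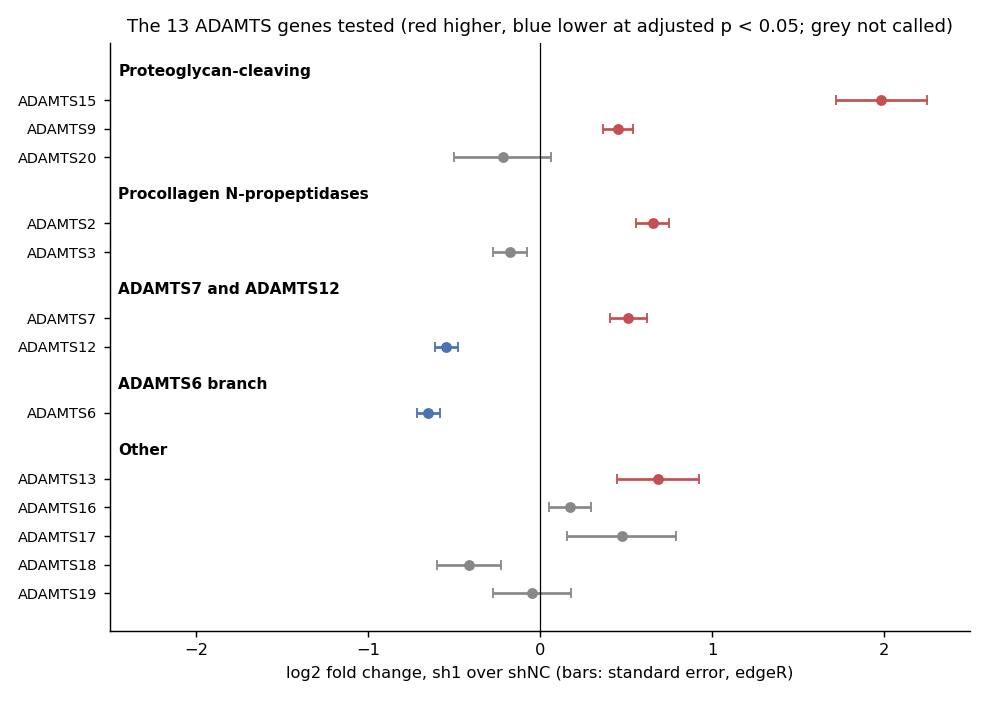
Log2 fold change, sh1 over shNC, of the 13 ADAMTS genes tested, with the standard error from edgeR as bars, grouped by known role. Red points were called higher and blue points lower at an adjusted p under 0.05, and grey points were not called. Values run from -0.65 for ADAMTS6 to 1.98 for ADAMTS15.

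The nearest protein-coding neighbours of ADAMTS9 also rose, PRICKLE2 at 70.2 kb (log2 fold change 0.88, adjusted p = 1.7e-05 from edgeR) and MAGI1 at 666 kb (0.24, adjusted p = 0.011). Both neighbours of ADAMTS2, ZNF354C and RUFY1, had log2 fold changes of -0.066 and -0.11 and did not pass. Those of ADAMTS6, CWC27 and CENPK, had -0.055 and -0.18 and did not pass either (adjusted p = 0.49 and 0.077 from edgeR). Beside ADAMTS12, TARS1, a threonyl-tRNA synthetase, fell slightly (-0.17, adjusted p = 0.007 from edgeR). Beside ADAMTS7, the cathepsin gene CTSH did not pass (-0.19, adjusted p = 0.15 from edgeR), nor did SNX19 beside ADAMTS15 (-0.065, adjusted p = 0.31 from edgeR). Among neighbours of members that were not tested, PPOX, the closer one of ADAMTS4 at 6.29 kb, did not pass (-0.010, adjusted p = 0.96 from edgeR), while FCER1G, at 16.2 kb on its other side, fell (-1.42, adjusted p = 0.00042 from edgeR). MYO1F beside ADAMTS10 fell (-1.22, adjusted p = 0.0078 from edgeR), and N6AMT1 beside ADAMTS5 did not pass (-0.041, adjusted p = 0.72 from edgeR).

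The 5 genes whose log2 CPM followed ADAMTS15 most closely over the 12 libraries, among 12994 genes searched, were ADAMTS2 (Pearson r = 0.96), the myosin light chain MYL9 (0.96), the guanylate-binding protein GBP2 (0.95), C14orf132 (0.95) and the chromatin regulator ASXL1 (0.95). All libraries of a group share its shRNA, so these values hold the group difference. With the group means removed, r was 0.81 for ADAMTS2, 0.92 for MYL9, 0.76 for GBP2, 0.74 for C14orf132 and 0.75 for ASXL1. MYL9 rose (log2 fold change 1.18, adjusted p = 1.6e-08 from edgeR), as did GBP2 (1.009), C14orf132 (0.86) and, by little, ASXL1 (0.11, adjusted p = 0.044). The correlations describe these libraries, and no test was run on them.

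In the lists of substrates, inhibitors and processing factors, together with the 9 other ADAMTS genes, 42 of 55 genes were tested, and 14 were called higher and 3 lower, with a median log2 fold change of 0.16. Over all genes tested, 12.8% were called higher and 13.3% lower, with a median of -0.0035, and the counts of each list below stand beside these shares as descriptions. Among the proteoglycans, 3 of 6 were tested and 3 rose. Versican (VCAN), a large proteoglycan that ADAMTS1, ADAMTS9 and ADAMTS15 cleave, ranged from 28.2 to 49.7 CPM with a median of 34.4 in shNC and from 65.4 to 95.8 CPM with a median of 82.9 in sh1. The groups did not overlap (log2 fold change 1.1, standard error 0.139, adjusted p = 1.7e-05 from edgeR). Biglycan (BGN) had a log2 fold change of 0.81 (adjusted p = 0.00063 from edgeR) and brevican (BCAN) of 0.51 (adjusted p = 0.0013 from edgeR). Aggrecan (ACAN), the substrate for which the aggrecanases are named, had at most 2 counts in an shNC library, and NCAN and DCN were also too low to test.

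Of 6 procollagen chains that are substrates of ADAMTS2 and its relatives, 4 were tested and 2 rose. COL5A1, the most abundant of them, was at 488 ± 40.7 CPM in shNC and 590 ± 53.4 CPM in sh1 (SD, n = 6 each, log2 fold change 0.27, adjusted p = 0.005 from edgeR) with overlapping groups. COL1A1 rose from 5.83 ± 1.81 to 16.3 ± 3.99 CPM (SD, n = 6 each, log2 fold change 1.49, adjusted p = 2.3e-05 from edgeR), with its lowest sh1 value, 8.57 CPM, in replicate 3. COL1A2 (0.22) and COL5A2 (-0.40) did not pass, and COL2A1 and COL3A1 were too low to test. BMP1, which removes the other propeptide, rose (log2 fold change 0.52, adjusted p = 0.00035 from edgeR), and so did PCOLCE2, an enhancer of that cleavage (0.47, adjusted p = 0.0018 from edgeR). TLL2 did not pass (-0.055) and TLL1 and PCOLCE were not tested, so 2 of 5 genes in this list were higher and none lower.

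Of 9 matrix glycoproteins that ADAMTS proteases cleave or bind, 8 were tested, 3 rose and 2 fell. FBLN1 (fibulin-1), a cofactor of ADAMTS1, rose from 2.30 ± 0.334 to 10.1 ± 1.55 CPM (SD, n = 6 each, log2 fold change 2.14, adjusted p = 4.4e-09 from edgeR), while ADAMTS1 itself stayed at the edge of detection. FBN1 rose (log2 fold change 0.74, adjusted p = 2.7e-06 from edgeR), in the direction opposite to ADAMTS6. EFEMP2 (fibulin-4) rose as well (0.81, adjusted p = 0.0003 from edgeR). LTBP1, a latent TGF-beta binding protein, fell (-0.52, adjusted p = 0.0002 from edgeR), and THBS1 fell slightly (-0.25, adjusted p = 0.022 from edgeR), a call lost under 8 of 20 alternatives. FN1 had a log2 fold change of 0.52 and did not pass (adjusted p = 0.068 from edgeR), although it passed under 5 of 20 alternatives. THBS2 (-0.099) did not pass, nor did FBN2 (0.11, adjusted p = 0.37 from edgeR), which passed under 1 of 20 alternatives, without shNC replicate 1 (adjusted p = 0.045). COMP had at most 1 count in an shNC library and was not tested, so the best-known substrate of ADAMTS7 and ADAMTS12 was at the edge of detection in these cells.

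Of the ADAMTS-like proteins, which lack the protease domain, 6 of 7 were tested. THSD4 (ADAMTSL6), a fibrillin-binding protein, fell from 88.9 ± 13.02 to 66.2 ± 3.97 CPM (SD, n = 6 each, log2 fold change -0.43, adjusted p = 0.00075 from edgeR). PAPLN (papilin) rose (0.36, adjusted p = 0.027 from edgeR), a call lost under 4 of 20 alternatives. The other 4 did not pass, with log2 fold changes from -0.13 for ADAMTSL3 to 0.22 for ADAMTSL4.

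None of the 3 tested inhibitors passed. TIMP3 was at 20.3 ± 3.599 CPM in shNC and 22.6 ± 3.66 CPM in sh1 (log2 fold change 0.15, standard error 0.122, adjusted p = 0.38 from edgeR), TIMP2 at 270.4 ± 9.72 and 250.4 ± 16.6 CPM (adjusted p = 0.11), and TIMP1 at 55.8 ± 4.37 and 52.1 ± 2.84 CPM (adjusted p = 0.25, SD and n = 6 each). TIMP4 and A2M were too low to test. Of 8 genes for maturation and uptake, all were tested and 2 rose. LRP1, an endocytic receptor that clears ADAMTS4 and ADAMTS5, had a log2 fold change of 0.76 (adjusted p = 0.00073 from edgeR) with overlapping groups. The convertase PCSK5 had 0.38 (adjusted p = 0.0019 from edgeR), a call lost under 1 of 20 alternatives (adjusted p = 0.072 from limma). FURIN, the main activating convertase, was at 122 ± 13.3 CPM in shNC and 123 ± 15.7 CPM in sh1 (SD, n = 6 each, log2 fold change 0.013, standard error 0.0803, adjusted p = 0.93 from edgeR). POFUT2 (0.070), which adds O-fucose to thrombospondin repeats, did not pass. B3GLCT, which extends that fucose with glucose, did not pass (0.20, adjusted p = 0.052 from edgeR), although it passed under 9 of 20 alternatives.

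**Figure D5:**
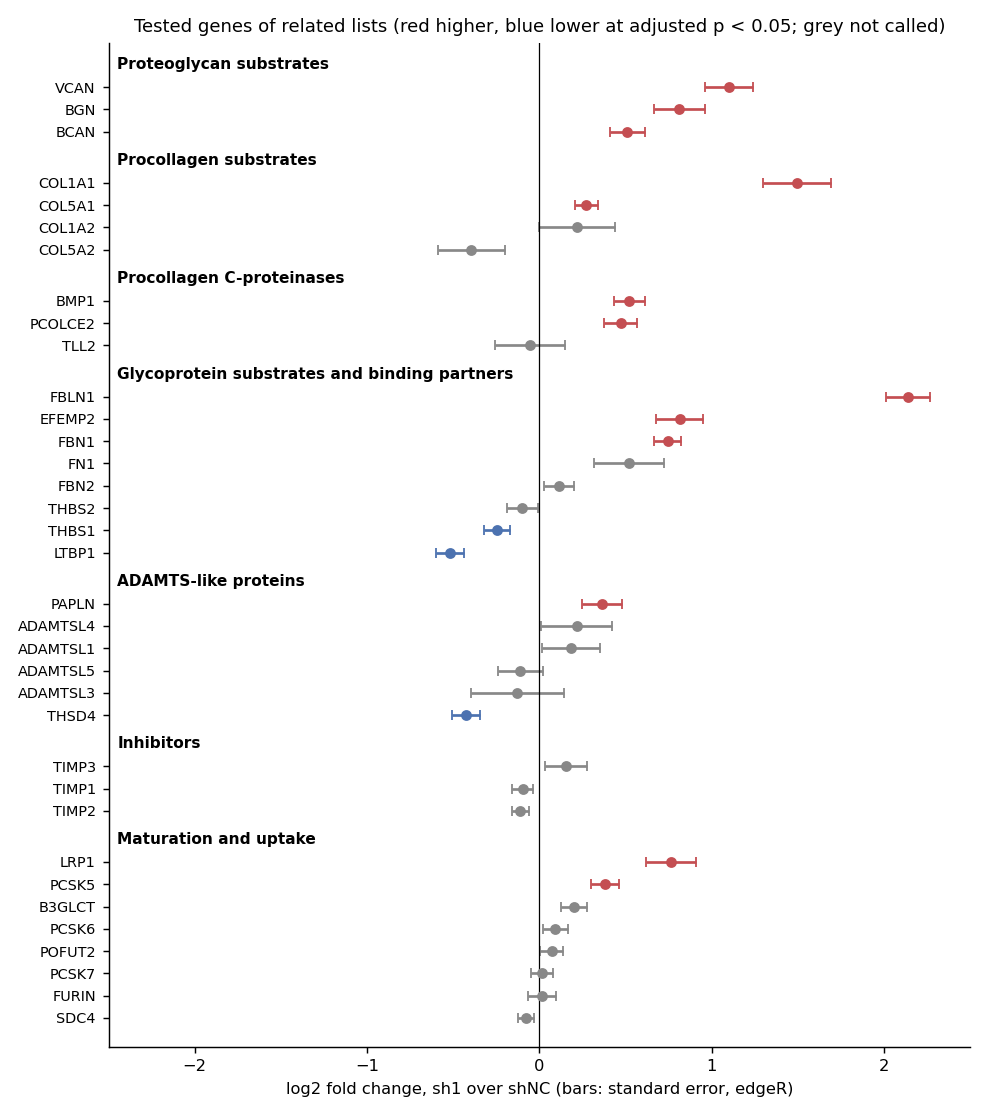
Log2 fold change, sh1 over shNC, of the tested substrates, processing enzymes, ADAMTS-like proteins and inhibitors, with the standard error from edgeR as bars. Red points were called higher, blue points lower and grey points not called at an adjusted p under 0.05. The proteoglycans VCAN, BGN and BCAN lie right of 0 and the 3 TIMP genes near 0.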

How the data were processed

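RNA enriched with oligo(dT) beads was sequenced as read pairs from 12 libraries. HISAT2 placed the reads on GRCh38 and featureCounts counted them by gene, with versions not given in the sources used here. The authors deposited whole-number counts per gene and FPKM values, which are counts divided by gene length and library total. A further deposited table, of scaled counts, was not used.

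Counts were tested in edgeR 4.0.16 (R 4.3.3) with TMM scaling, filterByExpr and glmQLFTest, adjusted by the Benjamini-Hochberg method over the 16489 genes tested, and called at an adjusted p under 0.05. The standard error of a log2 fold change is its size over the root of the F statistic. Permutation tests were exact, in scipy 1.17.1. Of 58676 Ensembl identifiers, 58207 matched GENCODE 44 (GRCh38). The 572 entries without an Ensembl identifier were kept in the totals and the fit. Alternatives used other scalings and filters, DESeq2 1.42.0, limma 3.58.1 on log2(FPKM + 1) or log2(FPKM + 0.1), a replicate block and each library left out. The members and gene lists were chosen with earlier results of these data known. Genes named are RUNX2, the members, genes of the lists that passed, were most abundant or define their list, antisense genes and pseudogenes of members, their nearest protein-coding neighbours, and, for a called member whose log2 fold change reached 1 in size, the 5 genes with the highest Pearson r. Other genes that did not pass were named after their values were seen.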

Additional observations from a re-analysis of the deposited data

Results flagged for a closer look

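Listed are libraries whose distance to the next library of their group, as a share of that group's range, passed Dixon's critical value for 6 libraries. Chance gives this in about 1 of 20 groups, or 5.5 of the 110 groups checked, and 7 were found. Among the members, ADAMTS1 was at 0.608 CPM in sh1 replicate 6, against 0 to 0.185 CPM in the other sh1 libraries, and ADAMTS12 was at 10.3 CPM in sh1 replicate 3, against 11.8 to 12.3 CPM. In sh1 replicate 3, COL1A1 was also at 8.57 CPM (15.98 to 19.1 CPM in the others), and its genes held 11239638 counts (14689309 to 16346022 in the other sh1 libraries). In sh1 replicate 1, TIMP1 was at 57.8 CPM (50.2 to 51.7 CPM) and FURIN at 153.5 CPM (110.9 to 126 CPM). In shNC replicate 3, ADAMTSL4 was at 2.503 CPM (1.32 to 1.67 CPM). The cause of these values was not tested.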

How the results depend on the processing

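The 6 tested members kept their direction and their call under each alternative that gave a value, 119 values in all, with adjusted p from 1e-15 to 0.029. Sizes were smaller by over 1.5 times with limma on log2(FPKM + 1) for 5 of them (all but ADAMTS6). Among called genes of the lists of other ADAMTS genes, ADAMTS-like proteins, substrates, inhibitors and processing factors, this held for ADAMTS13, PAPLN, BCAN, BGN, COL1A1, FBLN1, PCSK5 and PCOLCE2. Apart from RUNX2, genes outside the members and these lists were not followed under the alternatives. ADAMTS15 gave no value with at least 10 counts required in every library, which leaves 3 members higher there. RUNX2 kept its direction and call under all 20. The number of genes lower in sh1 was 2194, and 1375 when limma was run on log2(FPKM + 1) with no filter, where more genes were tested. With 1 library left out, log2 fold changes of genes that did not pass crossed 0, from -0.16 to 0.094 for ADAMTS19, -0.048 to 0.075 for FURIN, -0.014 to 0.053 for PCSK7 and -0.16 to 0.056 for TLL2. Deviations of same-numbered libraries from their group means correlated at -0.16 to 0.033, and none correlated best with its own number. No effect shared by replicate number was thus seen, which cannot show whether same-numbered libraries were prepared together. With the replicate number as a block, 1680 genes were higher and 1701 lower, with the same 4 members higher and 2 lower. Depth limits ADAMTS1, ADAMTS4, ADAMTS5 and ADAMTS10, whose library counts did not pass 11.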
